A study of Equus caballus with 6 samples.

Results

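Fibronectin 1 (FN1, ENSECAG00000000701) and the laminin alpha 5 chain (LAMA5, ENSECAG00000023274) are 2 secreted proteins of the extracellular matrix to which cells attach through surface receptors. They were taken by identifier from the 26992 entries of the deposited gene table, whatever their values, and both were measured in all 6 libraries. The libraries were made from polyA-enriched RNA of tenocytes, the resident cells of tendon, grown from the superficial digital flexor tendons of 1 adult horse. One group of 3 received a non-targeting siRNA (scramble control) and the other 3 an siRNA against the equine mRNA of scleraxis (Scx), a basic helix-loop-helix transcription factor used as a tendon marker. Cells of both groups were at passage 3, took up their siRNA by nucleofection, sat on collagen type I coated flexible plates, and underwent cyclic uniaxial strain of 1% at 0.5 Hz for 2 h a day on 3 days. The 3 libraries of a group were experimental repeats with this animal's cells, so the p-values measure the spread between repeats and not between horses.

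Fibronectin is secreted as a dimer and pulled into fibrils at the cell surface by integrins, and its fibrils also bind collagens, heparan sulfate proteoglycans, tenascin and thrombospondin. It is abundant in the matrix of cultured fibroblasts and in healing tissue. Laminins are trimers of an alpha, a beta and a gamma chain that form the sheet of basement membranes, and the alpha 5 chain carries the end that integrins and dystroglycan bind. In many tissues the alpha 5 chain is made by epithelial and endothelial cells. Both proteins are ligands of the focal adhesion, the site where integrins join the matrix to the actin cytoskeleton, and the comparison asks whether their mRNAs differed once the cells had received the Scx siRNA.

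The sequence that separates the 2 groups is the siRNA itself, and its strands are shown because every difference below is one between cells that took up this oligo and cells that took up a non-targeting one. Both strands are 21 bases long with 2 unpaired bases at the 3′ end, and capitals mark the seed (bases 2 to 8) of the antisense strand, which guides the silencing complex.
Scx siRNA sense strand: agagaaaguugagcaaggatt
Scx siRNA antisense strand: uCCUUGCUcaacuuucucugg

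Values are normalized counts, each library's reads per gene divided by the authors' size factor for that library. The reads behind them could be recovered, and they totalled 6539504 to 12213421 on genes per library. Reads fell on 13151 to 13392 entries in the scramble control and on 11026 to 11183 in Scx siRNA, a difference whose part in these results was not tested. The targeted Scx mRNA (NM_001105150) had 5, 7 and 25 reads in scramble control replicates 1, 2 and 3 and 5, 0 and 0 reads in Scx siRNA replicates 1, 2 and 3. The study relates the sparse Scx reads to a bias against its GC-rich sequence. In these samples it reports significantly lower Scx by qPCR and also in the reads aligned to the Scx mRNA. In normalized counts the library labelled Scx siRNA replicate 1 held 6.16, within the range of 4.88 to 16.0 over the scramble control libraries, and with 0 to 25 reads a library these counts say little about how far Scx was reduced in any one of them. The log2 fold change of Scx in the fit used here was -2.19 (SE 1.14, limma adjusted p = 0.192), which unlike the read comparison of the study did not pass. It moved to -0.41 with cyclic loess and to -0.019 with quantile normalization, and with 1 Scx siRNA library left out it was -3.14, -1.72 and -1.72 without replicates 1, 2 and 3 (adjusted p = 0.0464, 0.238 and 0.254). The first of these leaves out the library whose own Scx reads were highest, so it is no separate evidence of a lower Scx level. Scx siRNA replicate 2 stood apart from the other libraries of its group. Averaged over genes, the squared difference between 2 libraries divided by that expected from counting alone was 122 and 128 for the pairs with this library, against 26.5 for the pair without it and 7.71 to 15.3 for the pairs of scramble control libraries. Results for LAMA5 and FN1 are therefore given with and without these 2 libraries.

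Most of the transcripts taken here as tenocyte markers were read in the cells. Of 9 tenocyte markers, 8 had reads, of which Scx had 0 to 25 and THBS4 4 to 30 a library. The summed level of the markers ranged from 141006 to 144034 normalized counts over scramble control libraries and from 152929 to 173206 after Scx siRNA. As a share of reads on genes the sum overlapped, at 1.77% to 1.82% and 1.65% to 1.80%, and it was mostly COL1A2 and DCN. Of the 8 markers tested, COL1A1 and COMP were lower and DCN was higher at an adjusted p under 0.05, and the median log2 fold change was -0.86. Tenomodulin (TNMD), a defining marker of mature tendon cells, had 0 reads in all 6 libraries, which allows up to 0.246 to 0.459 RPM (the share of 3 reads, counting error only). RPM is the share of all reads on genes, as reads-per-million. SELE, an endothelial adhesion receptor, also had 0 reads in all 6, and TRIM29, an epithelial gene, had 11, 7 and 8 reads in scramble control replicates 1, 2 and 3 and 0, 3 and 0 reads after Scx siRNA. These were the only endothelial and epithelial markers with an identifier among the names used here. The study lists SELE and TRIM29, like LAMA5, among genes reported earlier as tendon-selective.

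LAMA5 fell in tenocytes exposed to Scx siRNA, while the FN1 groups overlapped. LAMA5 was at 26.8% of its scramble control mean and FN1 at 97.8%. Of the 11517 genes tested, 12.1% were lower and 12.9% higher in Scx siRNA at an adjusted p under 0.05 (limma, Benjamini-Hochberg), and 6.23% were lower with a log2 fold change of -1.5 or below, the size the study asked for. LAMA5 was among this last class. The calls were 1487 genes higher and 1395 lower, against 959 higher and 2072 lower when libraries were scaled to total reads. They were far fewer when a scramble control library was left out, with 597, 380 and 415 higher and 281, 137 and 173 lower without replicates 1, 2 and 3, and LAMA5 was among the lower genes each time. Without Scx siRNA replicate 2 they were more, with 2294 higher and 2595 lower.

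The LAMA5 normalized counts were 808, 789 and 783 in scramble control replicates 1, 2 and 3. In Scx siRNA replicates 1, 2 and 3 they were 246, 133 and 258. Every Scx siRNA library lay far below every scramble control library, and replicate 2, the library that stood apart, was the lowest. Normalized counts of 25.8% of all genes tested were likewise lower in Scx siRNA with no overlap between the groups, and those of 22.3% were higher.

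The group means of LAMA5 were 793 ± 12.8 (SD) for the scramble control and 212 ± 69.4 (SD) for Scx siRNA (n = 3 each). Limma gave a log2 fold change of -1.96 (SE 0.29, 95% interval -2.63 to -1.29, adjusted p = 0.00525), an interval that spans 16.2% to 41.0% of the control level. Permuting the libraries gave an exact two-sided p = 0.1, the smallest that 3 libraries against 3 can give. Without Scx siRNA replicate 2 LAMA5 was still lower, at -1.65 (limma adjusted p = 0.000516). Without replicate 1 LAMA5 was at -2.09 (adjusted p = 0.0146). The Scx count of replicate 1 lay within the range of the controls but rested on 5 reads. In bulk RNA, fewer cells that make LAMA5 and less LAMA5 RNA per cell cannot be told apart. The reads of TRIM29, too few for a test, were also fewer in Scx siRNA. The lowest class of genes tested, with a mean of 5 to 50 normalized counts, had a median log2 fold change of -1.11. The part of the TRIM29 reads in the LAMA5 result was not tested.

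The fall of LAMA5 also stood in the recovered reads. There were 828, 939 and 1225 LAMA5 reads in scramble control replicates 1, 2 and 3, whose 95% Poisson intervals ran from 773 to 1296 reads over the 3 libraries. The Scx siRNA libraries had 200, 133 and 187 reads, with intervals from 111 to 230. These intervals cover counting error only, since reads copied by PCR are not independent molecules. As a share of all reads on genes, LAMA5 went from 100.3 ± 0.896 (SD, n = 3) to 22.4 ± 8.28 (SD, n = 3) RPM.

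The coefficient of variation of LAMA5 (SD as a percent of the mean) was 1.61% over the scramble control libraries, where counting alone would give 3.21%, and 32.7% over the Scx siRNA libraries. The latter rested on Scx siRNA replicate 2. Without it the coefficient of variation was 3.38% (n = 2) and the higher of both libraries held 1.05 times the LAMA5 of the lower, compared with 1.95 times between the highest and lowest of all 3.

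FN1 was among the most highly read genes of both groups. Its normalized counts were 77854, 71806 and 81506 in scramble control replicates 1, 2 and 3. In Scx siRNA replicates 1, 2 and 3 they were 77564, 69460 and 79037. The ranges of the groups overlapped over most of their length, and the lowest of all libraries was Scx siRNA replicate 2.

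The means of FN1 were 77055 ± 4899 (SD) and 75354 ± 5157 (SD) for scramble control and Scx siRNA (n = 3 each). Limma gave a log2 fold change of -0.03 (SE 0.22, adjusted p = 0.922), and permuting the libraries gave an exact two-sided p = 0.6. The 95% interval of the log2 fold change, -0.54 to 0.47, spans 68.9% to 139% of the control level. Changes within those limits are compatible with this fit. Without Scx siRNA replicate 2 FN1 was at 0.03 (limma adjusted p = 0.916), without replicate 1 at -0.05 (adjusted p = 0.887), and without scramble control replicate 3 at 0.0089 (adjusted p = 0.987). The spread between repeats was alike, with a coefficient of variation of 6.36% under scramble control and 6.84% under Scx siRNA. Counting alone would give 0.327% and 0.399%, so depth did not limit the precision of FN1.

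**Figure D1:**
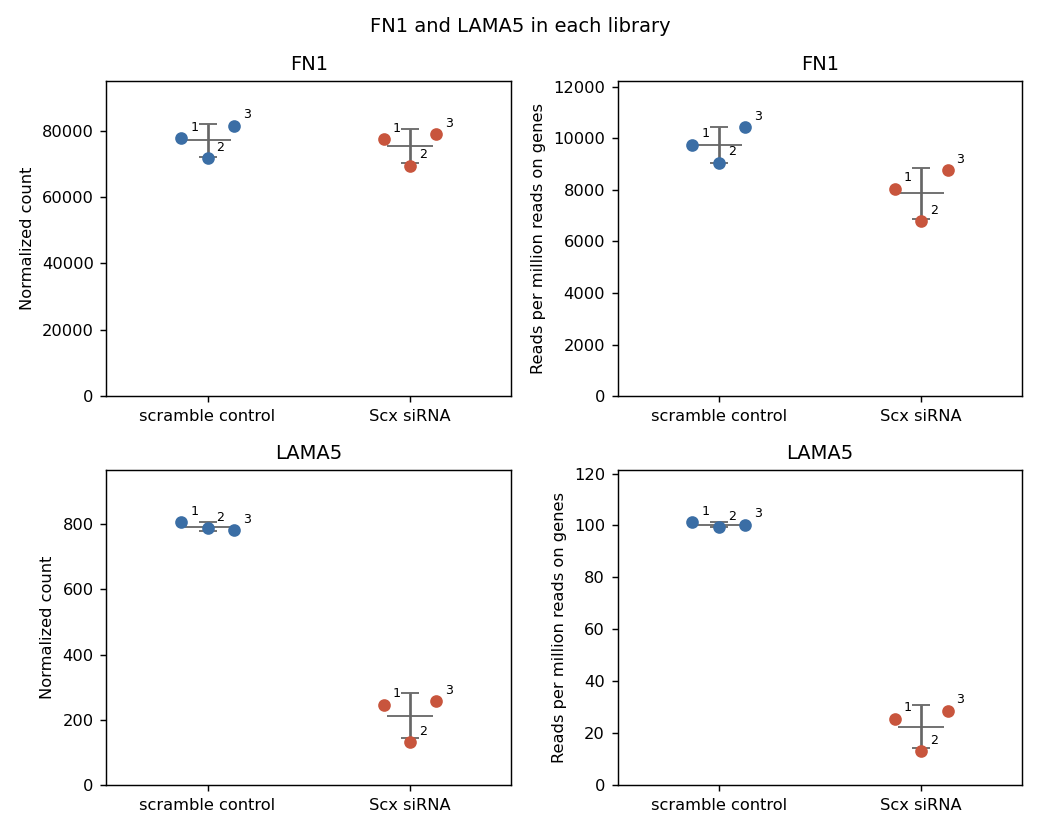
FN1 (top) and LAMA5 (bottom) in each library, as normalized counts (left) and as RPM (right). Points are libraries with their replicate number, and the bar is the group mean ± SD (n = 3). LAMA5 is separated on both scales, whereas FN1 overlaps in normalized counts (69460 to 81506) and not in RPM.

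The size of the FN1 difference, and its side of the median of all genes, depended on how the libraries were put on a common scale. As a share of the reads on genes, FN1 took 0.976%, 0.905% and 1.04% of scramble control replicates 1, 2 and 3. It took 0.805%, 0.680% and 0.875% of Scx siRNA replicates 1, 2 and 3. On this scale every Scx siRNA library lay below every scramble control library, at 7864 ± 990 (SD, n = 3) against 9748 ± 692 (SD, n = 3) RPM, or 80.7% of the control, with an exact permutation p of 0.1 (two-sided, the smallest possible). Of all genes tested, 35% were lower in RPM with no overlap between the groups, as FN1 and LAMA5 were, and 15.8% were higher.

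By number of reads, with no correction for transcript length, FN1 ranked 3, 4 and 2 in the scramble control libraries and 7, 5 and 7 in the Scx siRNA libraries. The size factors are the step between both scales. After them the normalized counts of a library summed to 7810000 to 7980430 in the scramble control and to 9033680 to 10221700 in Scx siRNA.

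Scaled to total reads, FN1 had a log2 fold change of -0.32 (limma adjusted p = 0.288). The median of all genes moved with it, from -0.20 to -0.48, so FN1 lay 0.17 above that median under both scalings. Quantile normalization, which gives every library one distribution of values, put FN1 at -0.43 (adjusted p = 0.1999). Cyclic loess, which takes out differences between libraries that depend on expression level, also put it at -0.43 (adjusted p = 0.131, unadjusted p = 0.0484). With these methods the median of all genes was -0.02 and -0.05, and FN1 lay 0.42 and 0.38 below it. In none of the fits did FN1 reach an adjusted p under 0.05.

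LAMA5 kept its direction and its call throughout. Its log2 fold change lay between -2.24 and -1.90 over the 12 alternatives that kept every library, with an adjusted p of at most 0.0103. Over the 6 fits that each left out 1 library it lay between -2.13 and -1.65, and the adjusted p was at most 0.0431, reached without scramble control replicate 2.

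**Figure D2:**
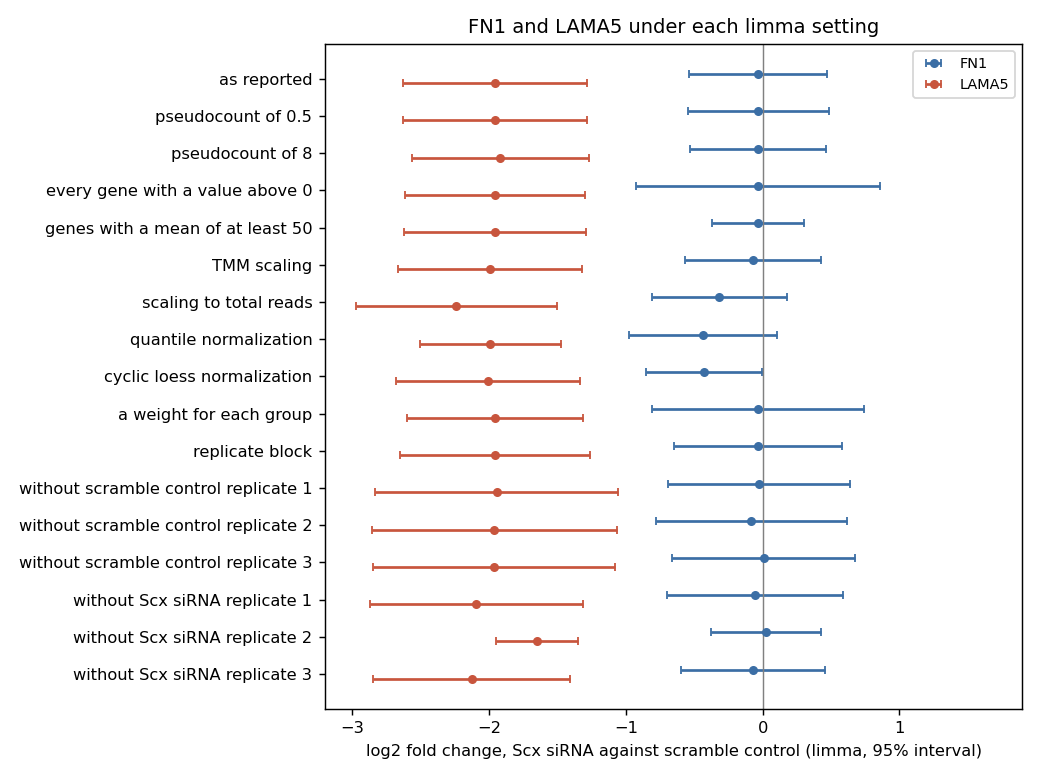
Log2 fold change of FN1 (blue) and LAMA5 (red) with its 95% interval from limma under the reported setting, the alternatives fitted with limma and each library left out. LAMA5 stays between -2.24 and -1.65, and FN1 lies between -0.43 and 0.03, with an interval that crosses 0 except after cyclic loess normalization.

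Over all genes the change varied with the level of expression, and both mRNAs were set beside genes of their own level. LAMA5 belonged to the 3357 genes whose mean lay from 250 to 1000 normalized counts, which had a median log2 fold change of 0.07 with quartiles of -0.58 and 0.67. LAMA5, at -1.96, lay well below the lower quartile. FN1 belonged to the 230 genes at 5000 or more, which had a median of 0.38 with quartiles of -0.25 and 0.98, and FN1, at -0.03, lay between the quartiles. The part of this trend in the FN1 and LAMA5 values was not tested beyond the scalings above.

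**Figure D3:**
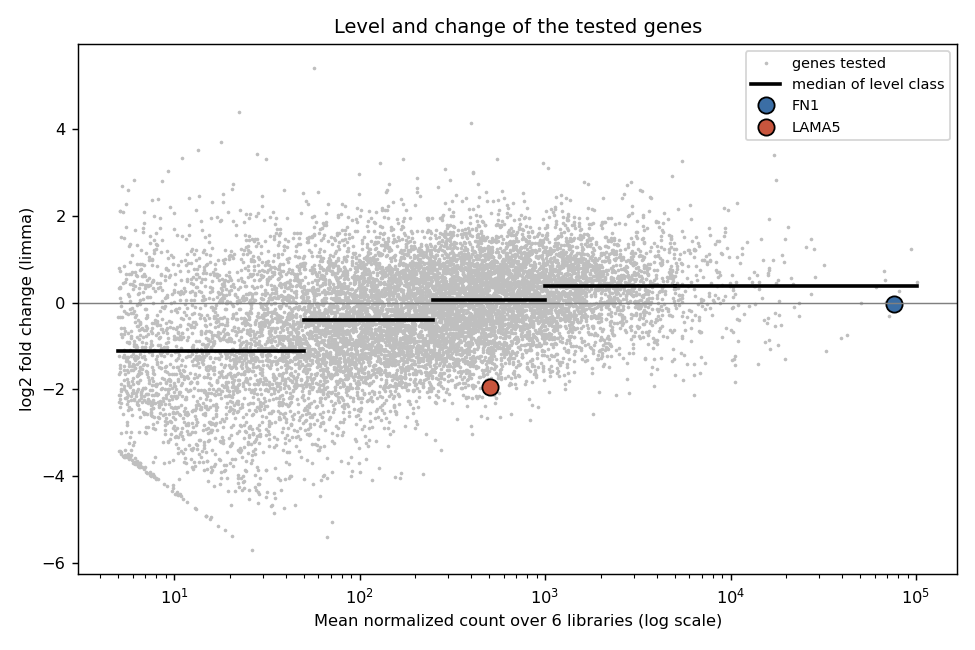
Log2 fold change from limma against the mean normalized count over the 6 libraries (log axis) for the 11517 genes tested, with the median of each level class as a black line. FN1 (blue) sits near 0 under a class median of 0.38, and LAMA5 (red) sits at -1.96 under a class median of 0.07.

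A size factor, common to all genes of a library, cancels when both ligands are compared within it. There were 10.4, 10.98 and 9.61 LAMA5 reads for every 1000 FN1 reads in scramble control replicates 1, 2 and 3. In Scx siRNA replicates 1, 2 and 3 there were 3.17, 1.91 and 3.27. Read numbers depend on transcript length, so this ratio is compared between libraries and not read as the relative abundance of the mRNAs. The groups did not overlap, and 24.5% of all genes tested were likewise lower relative to FN1 with no overlap. The log2 ratio of LAMA5 to FN1 was lower by a difference of -1.92 in Scx siRNA (two-sided exact permutation p = 0.1, the smallest possible). With each library left out in turn the difference lay between -2.06 and -1.67. Quantile and cyclic loess normalization, which do not use a common factor for all genes, gave smaller differences of -1.56 and -1.58.

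FN1 was then set against its partners in the matrix in the same way. Over 9 cell-binding matrix genes with an identifier, 6 were lower relative to FN1 in every Scx siRNA library than in every scramble control library and 0 were higher. For all genes tested these shares were 24.5% lower and 22.4% higher. FN1 reads per read of COL1A1, the alpha 1 chain of type I collagen, averaged 3.54 ± 0.525 (SD, n = 3) under scramble control and 7.27 ± 1.35 (SD, n = 3) under Scx siRNA. For TNC, tenascin-C, a glycoprotein that binds fibronectin, the ratio was 44.5 ± 4.97 and 74.4 ± 3.15. FN1 reads per read of COL1A2, the alpha 2 chain of the same collagen, averaged 1.14 ± 0.131 and 1.119 ± 0.266, with overlapping groups. Over 18 such ratios (9 cell-binding and 9 fibril-associated matrix genes) the smallest exact permutation p was 0.1, or 0.164 after Benjamini-Hochberg adjustment. In 11 the groups did not overlap, with FN1 relatively higher in 8 (against 24.5% of all genes) and relatively lower in 3 (against 22.4%). The 8 include ELN, whose 10, 0 and 0 reads in Scx siRNA make its separation rest on counts of 0.

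**Figure D4:**
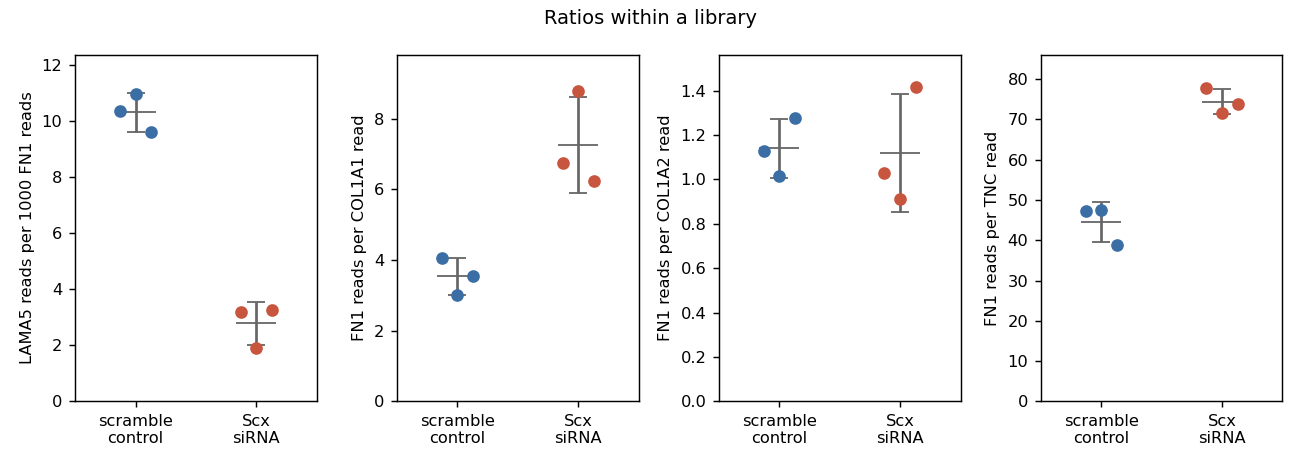
Reads of LAMA5 per 1000 reads of FN1, and reads of FN1 per read of COL1A1, COL1A2 and TNC, in each library (points) with the group mean ± SD (bars, n = 3). The groups are separate in the LAMA5, COL1A1 and TNC panels and overlap in the COL1A2 panel.

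The other ligands gave the setting of both mRNAs. Of the 9 cell-binding matrix genes, 5 fell at an adjusted p under 0.05 (55.6% of those tested, against 12.1% of all genes), 0 rose (12.9% of all genes) and 4 did not pass, and the median log2 fold change was -0.82 against -0.20 for all genes tested. COL5A1, the alpha 1 chain of type V collagen, which regulates fibril diameter, was the only one of them to share with LAMA5 a log2 fold change below -1.5, at -1.62 (limma adjusted p = 0.00495). The others that fell were COL1A1 (-1.06), COL6A3 of the type VI collagen of the pericellular matrix (-0.82), TNC (-0.78) and COMP, a pentameric collagen-binding protein (-0.92). The 4 that did not pass were COL3A1 (-0.30), COL1A2 (0.01), THBS1 (-0.25) and THBS4 (-0.95). COL3A1 and COL1A2, at levels like that of FN1, lay between 52834 and 81622 normalized counts in every library. COL3A1 was lower in Scx siRNA with no overlap in normalized counts, as were 25.8% of all genes tested. After cyclic loess COL3A1 was called lower (-0.69, limma adjusted p = 0.0442). The sign of COL1A2 changed with the scaling, and that of THBS4 under cyclic loess.

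Of the 10 fibril-associated matrix proteins and proteoglycans, 9 could be tested, with 3 higher (33.3%, against 12.9% of all genes), 1 lower (11.1%, against 12.1%) and a median log2 fold change of -0.37. Of the small leucine-rich proteoglycans, which coat collagen fibrils, DCN (0.73), LUM (1.23) and ASPN (1.46) rose, BGN was at -0.58 (adjusted p = 0.324) and FMOD at -0.79 (adjusted p = 0.236), and KERA was not tested. DCN kept its call in 8 of 18 alternatives, with an adjusted p of up to 0.189, reached with cyclic loess. ACAN, the large aggregating proteoglycan, fell by 2.10 on the log2 scale (limma adjusted p = 0.00281).

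At the cell surface the receptors of both ligands could be followed only in part, because integrin, talin and dystroglycan genes were not paired with identifiers in the sources used here and were not analysed here. From these libraries the study itself reports lower ITGA3 and ITGB3 (integrins), TLN1 and TLN2 (talins), LAMB2 (a laminin chain) and HSPG2 (a heparan sulfate proteoglycan). It reports vinculin as unaffected, and its talin differences were not significant by qPCR in a cohort of horses. SDC1, syndecan-1, a heparan sulfate proteoglycan that binds fibronectin and laminin, had 479, 464 and 456 normalized counts in the scramble control libraries. In Scx siRNA replicates 1, 2 and 3 it had 408, 125 and 510. Replicate 2 was far below the controls and replicate 3 above them, and limma gave -0.65 on the log2 scale (SE 0.50, adjusted p = 0.356). EZR, ezrin, which ties membrane proteins to actin, fell by 0.84 on the log2 scale (adjusted p = 0.0393). Of the 5 genes tested in this group 1 fell (20%, against 12.1% of all genes) and 0 rose, with a median log2 fold change of 0.48. CTNNB1 (0.57), ACTG1 (0.53) and VIM (0.48) were positive and did not pass (limma adjusted p = 0.110, 0.309 and 0.208). Normalized counts of CTNNB1 and VIM were higher in Scx siRNA with no overlap, as were those of 22.3% of all genes.

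Of the 6 matrix proteases tested, 2 rose (33.3%, against 12.9% of all genes) and 1 fell (16.7%, against 12.1%), with a median log2 fold change of -0.16. FAP, fibroblast activation protein, a surface protease of fibroblasts, rose by 1.75 on the log2 scale (limma adjusted p = 0.00308) and MMP13, a collagenase, by 0.85 (adjusted p = 0.0286), a call lost with total read, quantile and cyclic loess scaling (adjusted p = 0.0604, 0.109 and 0.0881). MMP2, a gelatinase, fell by 0.89 on the log2 scale (adjusted p = 0.0380). HTRA1, a secreted serine protease that cleaves fibronectin, was at -0.31 (adjusted p = 0.595), or at 0.16 without Scx siRNA replicate 2. TGFB3, a ligand of the pathway that induces fibronectin in fibroblasts, fell by 1.05 on the log2 scale (adjusted p = 0.0146), and TGFB1 was at -1.27 (adjusted p = 0.118), or at -0.61 (adjusted p = 0.0233) without Scx siRNA replicate 2.

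Over the 5 lists together, 34 genes in all, 31 were tested (KERA, DPP4 and MMP1 were too low), 5 were higher (16.1%, near the 12.9% of all genes) and 9 lower (29.0%, against 12.1%), and the median log2 fold change was -0.58. Of these 14 genes, ACAN, COL5A1 and FAP, like LAMA5, kept an adjusted p under 0.05 in every alternative. The remaining 11 each lost it without at least 1 library. Without scramble control replicate 1, 2 or 3 the number of lower genes was 2 each time, and that of higher genes 2, 1 and 1. Without Scx siRNA replicate 1 the number of higher genes was 3, as it was with total read, quantile or cyclic loess scaling.

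**Figure D5:**
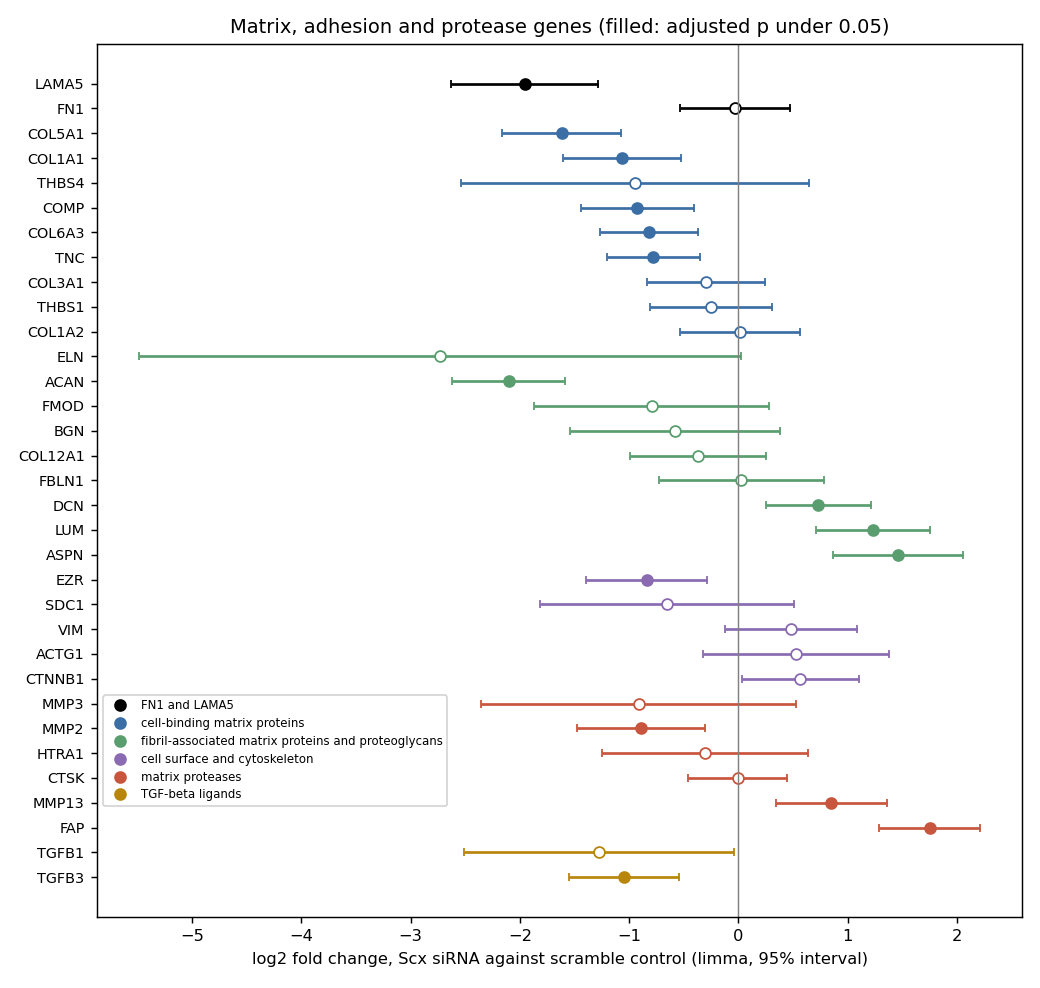
Log2 fold change with its 95% interval (limma) for FN1, LAMA5 and the 31 list genes tested, coloured by list. Filled points have an adjusted p under 0.05. LAMA5 lies at the left of the collagens and other cell-binding matrix proteins, and FN1 lies close to 0 beside COL1A2.

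The genes whose pattern over the 6 libraries was most like that of FN1 and of LAMA5 were sought among 70 named genes whose mean normalized count was 100 or more. Likeness was the root mean square difference between log2 values, each gene centred on its own mean. It takes in the difference between the groups, so similar log2 fold changes follow largely from this choice. Nearest to FN1 were CTSK, the lysosomal collagenase cathepsin K (difference of 0.09), HSPA8, a constitutive heat shock protein (0.13), and PRRX1, a mesenchymal homeobox factor (0.16). Their log2 fold changes were -0.01, -0.02 and 0.26 (limma adjusted p = 0.984, 0.955 and 0.206), and the sign of each changed under some alternative. CTSK averaged 50839 ± 792 (SD, n = 3) and 50649 ± 1833 (SD, n = 3) normalized counts under scramble control and Scx siRNA.

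Nearest to LAMA5 were ARSB, the lysosomal arylsulfatase B (0.24), IL4RA, the interleukin 4 receptor alpha chain (0.30), and ACAN (0.36). ARSB had 673, 655 and 584 normalized counts in scramble control replicates 1, 2 and 3 and 283, 149 and 272 after Scx siRNA, lowest in replicate 2 as LAMA5 was. IL4RA was also lowest in replicate 2, with 582, 211 and 532 in Scx siRNA replicates 1, 2 and 3 after 1154 ± 140 (SD, n = 3) in the scramble control. ACAN did not have that dip, with 116, 118 and 108. The log2 fold changes of ARSB and IL4RA were -1.49 and -1.51 (limma adjusted p = 0.0116 and 0.0288), and both lost the call whichever scramble control library was left out, with an adjusted p of up to 0.0713 and 0.119.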

How the data were processed

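RNA of 6 libraries was compared, 3 scramble control and 3 Scx siRNA. Per the labels and the methods of the study, the authors used Trimmomatic for trimming, HISAT2 (2.0.3) for alignment to EquCab2, HTSeq for counting reads per Ensembl gene and DESeq2 (1.12.4) for the size factor of each library. The deposited signal is therefore a normalized count per gene, and 100% of the values of each library were whole multiples (within 0.1 of a read) of the value of 1 read. Further columns hold fold changes and p-values from a comparison by the authors and were not used.

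For this report, limma 3.58.1 in R 4.3.3 (lmFit, eBayes with trend, two-sided, no covariate) was fitted on log2(normalized count + 1). The fit took in the 11517 genes whose mean was 5 or more, with Benjamini-Hochberg adjustment over all of them. It was also tried on simulated data, in which no library stood apart. In the real data the common dispersion, the spread beyond counting, was 0.0129 for scramble control and 0.360 for Scx siRNA. The simulation therefore does not give the rate of false calls here. Log2 fold changes are on that scale, and a call is an adjusted p under 0.05. Exact permutation tests (SciPy 1.17.1) served for single values. Alternatives were a pseudocount of 0.5 or 8, other filters (every gene above 0, a mean of at least 50), TMM, total read, quantile and cyclic loess scaling, edgeR 4.0.16 and DESeq2 1.42.0 on recovered reads, a weight for each group, a replicate block and leaving out each library. Gene names were those that tables of the study pair with an identifier. The named genes are FN1, LAMA5, Scx, members of the lists and, for FN1 and LAMA5, the 3 named genes of most similar pattern. Members, lists and alternatives were chosen with earlier results of these data known.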

Additional observations from a re-analysis of the deposited data

How the results depend on the processing

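Over 12 alternatives with every library, LAMA5 and FN1 kept their direction and their side of an adjusted p of 0.05, and the log2 fold change of FN1 ran from -0.43 to -0.03. With 1 library left out LAMA5 ran from -2.13 to -1.65 and FN1 from -0.082 to 0.025, with a change of sign (0.0089 without scramble control replicate 3). The number of list genes higher in Scx siRNA was 5, and 3 with every gene above 0 tested, with scaling to total reads, with quantile and with cyclic loess normalization. With 1 library left out it was 1 to 6, and the number lower, 9, was 2 to 11. The log2 fold change of COL1A2 turned to -0.023 with TMM, -0.27 with total reads, -0.25 with quantile normalization, -0.38 with cyclic loess and -0.011 with edgeR. That of THBS4 was 0.13 with cyclic loess. PRRX1 gave -0.018 with total reads, -0.12 with quantile normalization and -0.10 with cyclic loess. With 1 library left out COL1A2 ran from -0.064 to 0.16, HTRA1 from -0.56 to 0.16, CTSK from -0.036 to 0.012 and HSPA8 from -0.085 to 0.077. The cause of these changes was not tested. Over all genes, edgeR on the recovered reads called 1481 higher and 1297 lower, DESeq2 called 1973 and 1732, and the fit with a replicate block 1141 and 976. Of the 14 list genes called, 8 lost the call under at least 1 other setting that kept every library.

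The deviations of libraries with the same replicate number had r = -0.08, 0.02 and 0.17 for numbers 1, 2 and 3 (across genes, which are not independent replicates). Deviations were taken from group means of 3 libraries, which pulls r values to balance around 0. The labels also do not tie replicate numbers to repeats of the experiment, so pairing cannot be judged from these values. With a replicate block the log2 fold change was -1.96 for LAMA5 (adjusted p = 0.0103 from limma) and -0.03 for FN1 (adjusted p = 0.939). Scx could not be fitted without scramble control replicate 3, since its mean was then under 5. Low read numbers limit Scx, whose counts were between 0 and 25 reads, far more than LAMA5 or FN1.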

Other observations

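DPP4, a surface peptidase that binds fibronectin, was read in a single library. It had 11 reads in the library labelled Scx siRNA replicate 1 and 0 in the other 5, where a count of 0 allows up to 0.246 to 0.459 RPM (reads-per-million on genes; 3 reads of the total, counting error only). Its mean was too low for a test.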
